A study of Homo sapiens with 2 samples.

Results

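The 9 mature miRNAs described here come from 6 hairpins at the MEG3 side of the imprinted DLK1-DIO3 region on chromosome 14 (14q32), namely miR-2392, miR-770, miR-493, miR-337, miR-665 and miR-370. The rule that chose them used name and place, and it was set with earlier results of these data known. Of 10 names sought among the 2218 listed miRNAs, 9 matched a row, and miR-370 without an arm had no row of its own. All 9 had at least 20 reads over both libraries, the minimum used for the 2-fold counts below. Small RNA was sequenced from K562 cells, a human erythroleukaemia line grown in suspension, after transduction with a lentivirus overexpressing QKI5 or with a GFP lentivirus as the control, with 1 library in each group. QKI5 is an isoform of the RNA-binding protein Quaking that stays in the nucleus, and the comparison asks which miRNAs differ in abundance when it is overexpressed. Both groups are the same transduced cell line, and the QKI5 transcript was not analysed here.

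The QKI5 library rested on 6553945 reads and the GFP library on 23262340 reads, of which 59.5% and 66.3% were on listed miRNAs. These totals were worked out from the deposited values, taking their smallest step as 1 read and their scale as per 1000000 reads. Levels are RPM, reads per 1000000 reads of a library, so 1 read was worth 0.153 RPM with QKI5 and 0.0430 RPM with GFP. The 6 blood lineage miRNAs used as a check of the label (miR-451a, miR-144-3p, miR-486-5p, miR-142-3p, miR-223-3p and miR-126-3p) lay between 293 and 38674 RPM in QKI5 cells and between 528 and 14362 RPM in GFP cells. Of the markers of other cell types that were listed, miR-124-3p, miR-122-5p, miR-133a-3p, miR-302a-3p and miR-302d-3p had at most 6 reads in a library, while miR-9-5p, a miRNA of neural tissue, was at 332 RPM in QKI5 cells, against 378 RPM in GFP cells. Every ratio below sets 1 library against 1 library and has no replicate check. The 95% intervals cover only the counting error of reads taken as independent. Reads that carry no molecular identifier may be copies of 1 molecule, so the intervals may be too narrow. Fewer cells with a miRNA cannot be told apart from less of it in each cell.

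The DLK1-DIO3 region is imprinted. Its noncoding RNAs, MEG3 and MEG8 among them, and its many miRNAs are made from the maternal copy, while the protein-coding genes DLK1, RTL1 and DIO3 are made from the paternal copy. A miRNA is cut by Drosha and Dicer from a hairpin in a longer transcript, and either arm of the hairpin (5p or 3p) can be loaded into Argonaute, where bases 2 to 8, the seed, pair with target mRNAs. Quaking proteins bind RNA at ACUAA-containing sites and are known for roles in splicing, RNA stability and the processing of some primary miRNAs.

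The mature sequences are shown because the members share a region but not a sequence. They are given 5′ to 3′ from RefSeq (GRCh38.p14, chromosome 14, plus strand), in genomic order, with the seed in capitals. RefSeq gave a sequence for all 9.
hsa-miR-2392: uAGGAUGGgggugagaggug
hsa-miR-770-5p: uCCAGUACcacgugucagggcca
hsa-miR-493-5p: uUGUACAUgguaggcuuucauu
hsa-miR-493-3p: uGAAGGUCuacugugugccagg
hsa-miR-337-5p: gAACGGCUucauacaggaguu
hsa-miR-337-3p: cUCCUAUAugaugccuuucuuc
hsa-miR-665: aCCAGGAGgcugaggccccu
hsa-miR-370-5p: cAGGUCACgucucugcaguuac
hsa-miR-370-3p: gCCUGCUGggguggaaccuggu

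No seed was shared between members. Among the 1946 listed miRNAs with a RefSeq sequence, miR-770-5p shared its seed with miR-4712-5p, which had 0 reads in both libraries, and the other 8 members shared theirs with none. Each mature sequence had 1 place in the RefSeq table. Among 206694 GENCODE 29 transcripts, an exact copy of 8 of the sequences lay only in the miRNA's own entry, and the copy of miR-770-5p lay in MIR770 and in a MEG3 transcript.

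GENCODE 29 (GRCh38) places the hairpin of MIR2392 at chr14:100814491-100814574, within an intron of the 1 MEG3 transcript that spans it. MIR770 lies at chr14:100852390-100852487, 37815 bases further on, in an intron of 30 and an exon of 1 of the 31 MEG3 transcripts that span it, and also in an intron of the long noncoding RNA AL117190.1. MIR493 (chr14:100869060-100869148), MIR337 (chr14:100874493-100874585) and MIR665 (chr14:100875033-100875104) lie between MEG3 and RTL1, likewise in an intron of AL117190.1, and only 447 bases separate MIR337 from MIR665. MIR370 lies at chr14:100911139-100911213, in introns of AL117190.1 and of 3 MEG8 transcripts, 26355 bases beyond the last of the RTL1 antisense miRNAs, so "MEG3-side" describes miR-370 less well than the other 5 hairpins. The deposited values were mapped by their authors to hg19, and these positions serve only to describe the place of each gene.

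The members spanned a wide range of levels. In the QKI5 library the order was hsa-miR-337-5p (2034 RPM), miR-337-3p (1722), miR-493-5p (1339), miR-493-3p (652), miR-665 (343), miR-2392 (328.96), miR-370-3p (17.5), miR-770-5p (15.9) and miR-370-5p (5.04). In the GFP library it was miR-493-5p (1289 RPM), miR-337-5p (1201), miR-337-3p (1201), miR-493-3p (495.1), miR-665 (439), miR-2392 (49.8), miR-770-5p (12.1), miR-370-3p (7.82) and miR-370-5p (5.80). RPM is not divided by length, and the members are 20 to 23 bases long. Neighbours whose counting intervals overlapped were miR-665 with miR-2392 and miR-370-3p with miR-770-5p in the QKI5 library, and the arms of miR-337 and the arms of miR-370 in the GFP library.

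**Figure D1:**
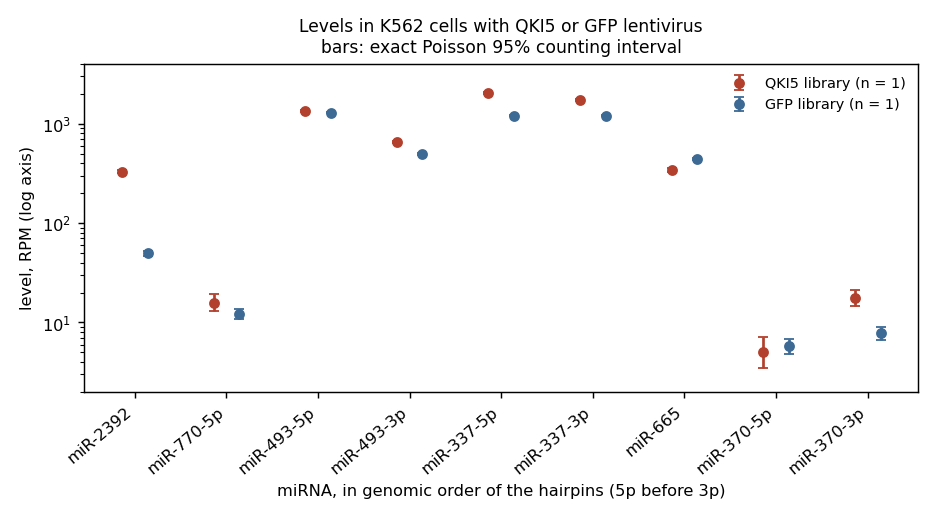
Level of each of the 9 miRNAs in RPM (log axis) in the QKI5 library and the GFP library, 1 library each, in genomic order of the hairpins; bars are exact Poisson 95% counting intervals. The points of miR-2392 stand farthest apart, at 328.96 RPM in QKI5 cells against 49.8 RPM in GFP cells, and those of miR-493-5p, at 1339 and 1289 RPM, lie close together.

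hsa-miR-2392, the first hairpin of the region within MEG3, differed most. It had 2156 reads in the QKI5 library (328.96 RPM, 95% interval 315 to 343) and 1159 reads in the far deeper GFP library (49.8 RPM, 47.0 to 52.8), a ratio of 6.603 (6.14 to 7.10). It was the 87th most abundant miRNA with QKI5 and the 194th with GFP, and made up 5.09% of the summed level of the members with QKI5 against 1.06% with GFP. miR-2392 has been reported to act on mitochondrial transcription in tongue cancer cells. Its log2 ratio of 2.72 was the 10th highest of the 669 miRNAs with at least 20 reads and the 5th highest of the 400 most abundant. It lay between 2.42 and 2.88 in the 9 settings compared, which vary the scaling, the pseudocount, the depth and a correction for GC content. Among the 109 miRNAs with a mean level of 100 to 1000 RPM, 13 (11.9%) were higher with QKI5 by 2-fold or more and 8 (7.34%) lower.

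The other miRNA within MEG3, hsa-miR-770-5p, did not share that difference. It had 104 reads with QKI5 (15.9 RPM, 12.97 to 19.2) and 282 reads with GFP (12.1 RPM, 10.7 to 13.6), a ratio of 1.31 (1.04 to 1.64), and its log2 ratio of 0.38 turned to -0.04 under quantile normalization. QKI5 cells had 20.7 miR-2392 reads for each miR-770-5p read, against 4.11 in GFP cells, a 5.04-fold change (3.98 to 6.39) that does not depend on the factor by which each library is scaled. Quantile normalization does alter it, since there the log2 ratios were 2.72 for miR-2392 and -0.04 for miR-770-5p.

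The 5 miRNAs between MEG3 and RTL1 carried nearly all reads of the group, with a summed level of 6091 RPM in QKI5 cells against 4625 RPM in GFP cells, a ratio of 1.32 (1.30 to 1.33). miR-493, described as a suppressor of liver metastasis in colon cancer, was close to even in its 5p arm and higher with QKI5 in its 3p arm. hsa-miR-493-5p had 1339 RPM in QKI5 cells (1311 to 1367), against 1289 RPM in GFP cells (1274 to 1303), a ratio of 1.04 (1.01 to 1.06). Its log2 ratio of 0.06 turned to -0.11 under quantile normalization, -0.05 without the 10 most abundant miRNAs in the scaling and -0.13 under a trimmed mean, so no direction can be given for it. hsa-miR-493-3p had 652 RPM in QKI5 cells (633 to 672), against 495.1 RPM in GFP cells (486.1 to 504), a ratio of 1.32 (1.27 to 1.36), and its log2 ratio of 0.40 ranged from 0.22 to 0.55 over the 9 settings.

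miR-337, whose 3p arm has been reported to target STAT3, was higher with QKI5 in both arms. hsa-miR-337-5p had 2034 RPM in QKI5 cells (2000 to 2069), against 1201 RPM in GFP cells (1187 to 1215), a ratio of 1.69 (1.66 to 1.73). hsa-miR-337-3p had 1722 RPM in QKI5 cells (1691 to 1754), against 1201 RPM in GFP cells (1187 to 1215), a ratio of 1.43 (1.40 to 1.47). Neither arm reached 2-fold, and both stayed above 0 on the log2 scale in all 9 settings, at 0.58 to 0.92 for the 5p arm and 0.34 to 0.71 for the 3p arm. With miR-493-5p they belong to the 49 miRNAs at or above 1000 RPM, of which 7 (14.3%) were higher by 2-fold or more and 1 (2.04%) lower.

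hsa-miR-665, the nearest neighbour of miR-337, was lower with QKI5. It had 343 RPM in QKI5 cells (328.97 to 357), against 439 RPM in GFP cells (430.5 to 448), 1.28-fold lower (1.22 to 1.34). Its log2 ratio of -0.36 stayed below 0 in all 9 settings and was -0.92 after removal of a linear GC trend. QKI5 cells had 5.93 miR-337-5p reads for each miR-665 read, against 2.74 in GFP cells, a 2.17-fold change (2.06 to 2.28) across 447 bases of sequence between the hairpins. For miR-337-3p against miR-665 that change was 1.84-fold (1.75 to 1.93). The size of such changes depends on the processing. Under quantile normalization the log2 ratios were 0.66 for miR-337-5p, 0.43 for miR-337-3p and -0.21 for miR-665. With the GC trend removed they were 0.78, 0.71 and -0.92.

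miR-370, reported to target the cell cycle factor FOXM1, was scarce, and its arms diverged. hsa-miR-370-3p had 115 reads with QKI5 (17.5 RPM, 14.5 to 21.1) and 182 reads with GFP (7.82 RPM, 6.73 to 9.05), a ratio of 2.24 whose interval of 1.76 to 2.85 spans 2-fold. Its log2 ratio of 1.15 fell under the threshold of 1 with quantile normalization (0.78), with a trimmed mean (0.97) and with the GC trend removed (0.63). Of the 172 miRNAs with a mean of 10 to 100 RPM, miR-370-3p and miR-770-5p among them, 45 (26.2%) were higher by 2-fold or more and 15 (8.72%) lower. hsa-miR-370-5p had 33 reads with QKI5 (5.04 RPM, 3.47 to 7.07) and 135 reads with GFP (5.80 RPM, 4.87 to 6.87), a ratio of 0.868 (0.574 to 1.28). A difference in miR-370-5p was not detectable at this depth, and its log2 ratio of -0.20 turned to 0.04 with the GFP reads thinned to the QKI5 total.

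As a group, 2 of the 9 members, miR-2392 and miR-370-3p, were higher with QKI5 by 2-fold or more and 0 were lower by as much. By the same rule 131 of the 669 miRNAs with at least 20 reads (19.6%) were higher and 61 (9.12%) lower, so the members' count is near that of all miRNAs. The members' median log2 ratio was 0.40, against 0.20 over the 669, with 7 members above 0 and 2 below (5 and 4 under quantile normalization, where the median of the 669 was -0.09 and that of the members 0.43). An exact binomial test of the reads with Benjamini-Hochberg adjustment at 0.05, which compares these 2 libraries and not the conditions, called 7 of the 9, with 6 higher and 1 lower, and left out miR-770-5p and miR-370-5p. These calls hold for the scaling as deposited only. The 6 higher include miR-493-5p, at a ratio of 1.04, whose sign changed with the scaling, so its call gives no direction. The test called 426 of 1995 detected miRNAs (21.4%), with 14.5% higher and 6.82% lower, while 1326 of the 1995 had under 20 reads over both libraries. So few reads can seldom give a call, and all 9 members had at least 20. The share called among the 669 was not computed, so the members' count has no background of like depth. Summed over the members the level was 6459 RPM in QKI5 cells against 4700 RPM in GFP cells, a ratio of 1.37 (1.36 to 1.39), and 1.32 (1.30 to 1.33) without miR-2392. The members held 1.09% of the miRNA reads with QKI5 and 0.709% with GFP.

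**Figure D2:**
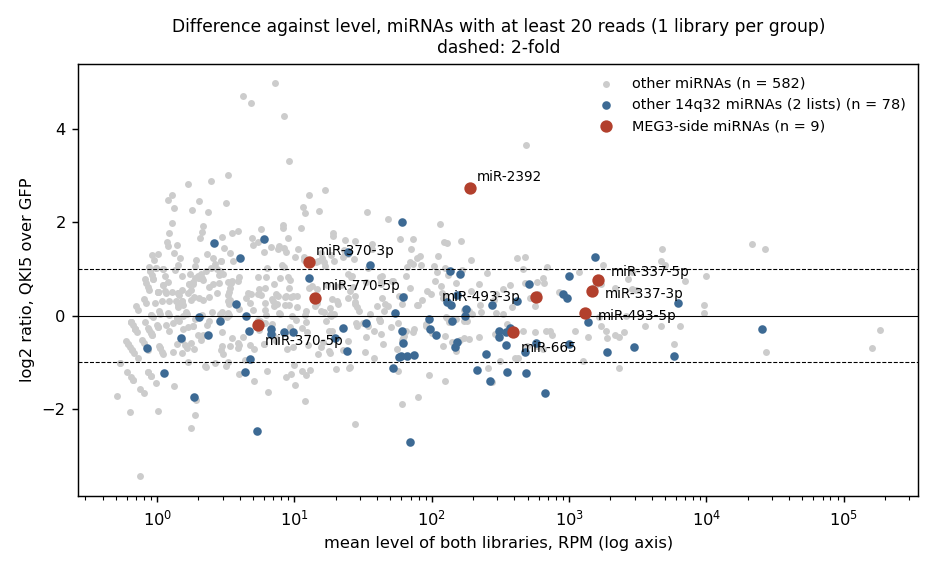
Log2 ratio of QKI5 over GFP against the mean level of both libraries (RPM, log axis) for the 669 miRNAs with at least 20 reads; points are miRNAs, the 9 described here are named, other 14q32 miRNAs are in blue and dashed lines mark 2-fold. miR-2392, at 2.72, lies apart from the other 8, which fall between -0.36 and 1.15.

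The neighbouring lists of the same region had lower medians. The 10 RTL1 antisense miRNAs (both arms of miR-431, miR-433, miR-127, miR-432 and miR-136) had a median log2 ratio of -0.17, with 4 above 0 and 6 below, and 1 past 2-fold in each direction. Their most abundant member, miR-136-5p, had 1383 RPM in QKI5 cells, against 2369 RPM in GFP cells. The extremes were miR-432-3p, at 9.15 RPM in QKI5 cells against 2.84 RPM in GFP cells, a ratio of 3.23 (2.24 to 4.65), and miR-136-3p, at 144.5 RPM against 384 RPM, 2.66-fold lower (2.48 to 2.84). Of the 74 miRNAs listed for the cluster of miR-379 to miR-656, 68 had at least 20 reads, with a median of -0.34, 20 above 0 and 48 below, and with 6 higher and 10 lower by 2-fold or more. There miR-376c-3p was the most abundant, at 22639 RPM in QKI5 cells against 27697 RPM in GFP cells, and miR-539-5p and miR-369-3p had the highest and lowest log2 ratios, 1.99 and -2.71. The summed level was 0.708 times the GFP level with QKI5 for the RTL1 antisense miRNAs (0.696 to 0.720) and 0.843 times for the cluster (0.839 to 0.846), against 1.37 times for the members.

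**Figure D3:**
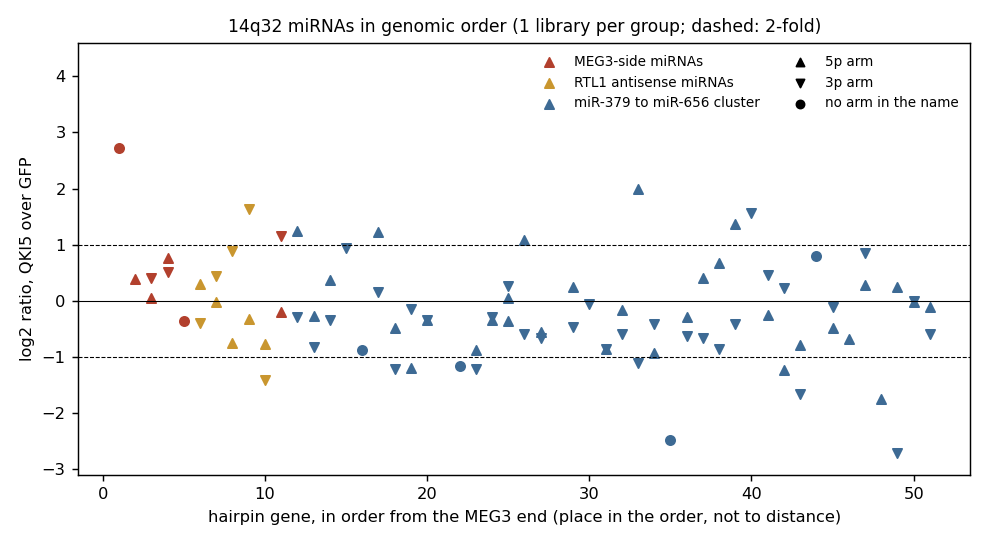
Log2 ratio of QKI5 over GFP for the 14q32 miRNAs with at least 20 reads, placed by the order of their 51 hairpin genes from the MEG3 end; point shape gives the arm, colour the list, and dashed lines mark 2-fold. Of the first 5 hairpins only miR-665 lies below 0, at -0.36, with the values as deposited (under quantile normalization miR-493-5p and miR-770-5p do too), while the cluster of miR-379 to miR-656 has a median of -0.34.

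Both arms were listed for 3 of the 6 hairpins, and the read shares of the arms do not depend on the factor by which each library is scaled. The RefSeq hairpins of MIR493 and MIR337 are shown with the mature arms in capitals, since the arm shares refer to them.
MIR493: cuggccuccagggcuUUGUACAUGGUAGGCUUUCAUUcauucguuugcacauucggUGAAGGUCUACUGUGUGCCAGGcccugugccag
MIR337: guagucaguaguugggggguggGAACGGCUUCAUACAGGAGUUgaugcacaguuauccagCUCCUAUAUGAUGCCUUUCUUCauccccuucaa

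For miR-493 the 5p arm made up 67.2% of the reads of both arms with QKI5 (Wilson 95% interval 66.4% to 68.0%) and 72.2% with GFP (71.8% to 72.7%), so 5p reads per 3p read were 1.27-fold lower with QKI5 (1.22 to 1.32). Under quantile normalization, which does not keep such ratios, the log2 ratios of the arms were -0.11 for 5p and 0.44 for 3p. For miR-337 the arms were even with GFP, at 27943 reads of 5p and 27929 of 3p, or 50.01% 5p (49.6% to 50.4%). With QKI5 they were at 13333 and 11288 reads, or 54.2% 5p (53.5% to 54.8%), a ratio of ratios of 1.18 (1.15 to 1.22). For miR-370 the 5p share was 22.3% with QKI5 (16.3% to 29.7%) and 42.6% with GFP (37.3% to 48.1%), 2.58-fold fewer 5p reads per 3p read with QKI5 (1.65 to 4.04). The change was toward 3p in miR-493 and miR-370 and toward 5p in miR-337. Among 185 hairpins with at least 20 reads on each arm, 67 (36.2%) changed in arm ratio by at least 2-fold either way, and 23.2% changed more than miR-370, 77.3% more than miR-493 and 83.2% more than miR-337.

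**Figure D4:**
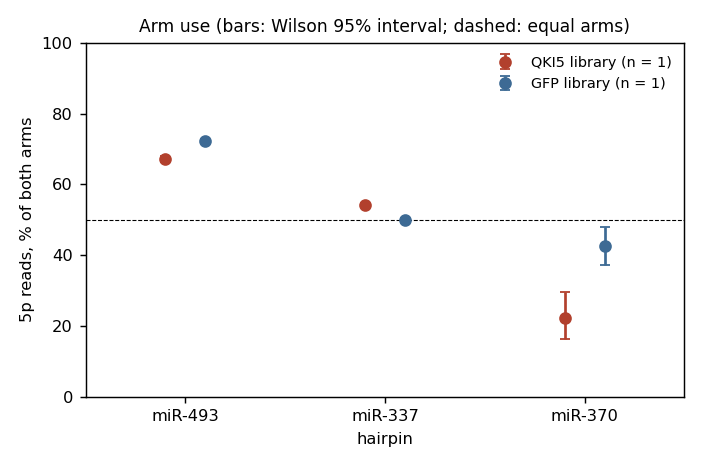
Share of 5p reads among the reads of both arms, in percent, in the QKI5 library and the GFP library for the 3 hairpins with both arms listed; bars are Wilson 95% intervals and the dashed line marks equal arms. miR-370 shows the widest gap, at 22.3% with QKI5 and 42.6% with GFP.

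The members also differ in base composition, which moved with the log2 ratio across miRNAs in general. Across the 590 miRNAs with at least 20 reads and a RefSeq sequence the log2 ratio was higher by 0.26 per 10 points of GC content (Pearson r 0.309 across miRNAs, which share both libraries). Within the members no such order was seen. miR-665, with the highest GC content at 70.0%, had the lowest log2 ratio, miR-370-3p (68.2%) stood at 1.15, miR-770-5p (60.9%) at 0.38 and miR-493-5p (36.4%) at 0.06. miR-2392, at 60.0% GC, is made of G at 12 of its 20 bases, with a run of 5 G that begins within the seed, and its log2 ratio was 2.42 with the GC trend removed. The longest run of G was 4 in miR-370-3p and 1 to 3 in the other 7. The part of base composition in the difference of miR-2392 was not tested beyond the removal of this trend.

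**Figure D5:**
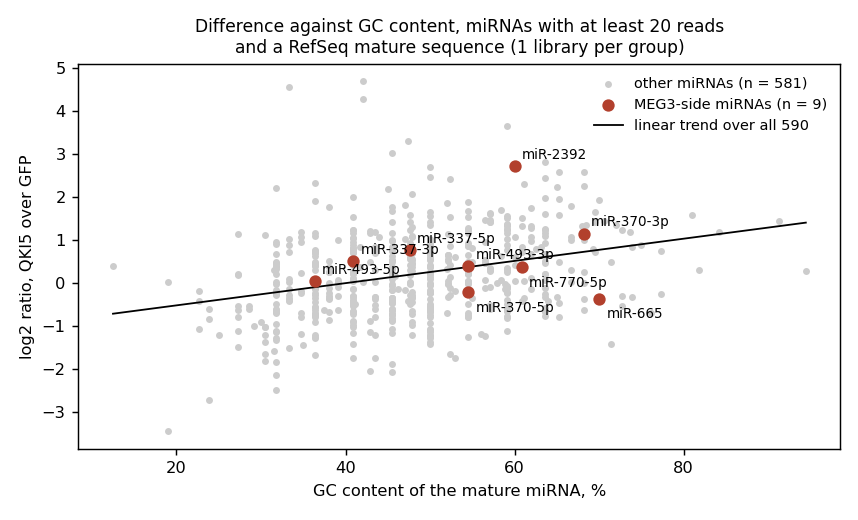
Log2 ratio of QKI5 over GFP against the GC content of the mature miRNA in percent, for 590 miRNAs; the 9 described here are named and the line is the linear trend over all 590. miR-2392 (60.0% GC) lies above the line at 2.72 and miR-665 (70.0% GC) below it at -0.36.

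The core letters of the Quaking site, ACUAA, were searched in the 5 RefSeq hairpins of MIR2392, MIR770, MIR493, MIR337 and MIR665. The hairpin of MIR370 was missing from the RefSeq set used, so it was not searched. The letters were in 0 of the 5 on the sense strand and 0 on the other strand (UUAGU), against 3.27% and 3.71% of 1562 human hairpins. At such shares 0 of 5 is the usual outcome for any 5 hairpins. The search therefore cannot tell whether the letters are rarer in these hairpins than in others. The hairpin of miR-2392 is shown since its miRNA differed most, with the mature sequence in capitals. These windows hold only the hairpin, not the surrounding primary transcript.
MIR2392: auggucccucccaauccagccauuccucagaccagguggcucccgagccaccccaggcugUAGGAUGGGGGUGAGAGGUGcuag

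Likeness was measured as the gap in log2 ratio (QKI5 over GFP, 1 library each) among the 400 most abundant miRNAs, of which 72 (18.0%) are in the 14q32 lists. Each miRNA has only 1 such value, so small gaps can arise among 400 miRNAs without any shared behaviour. Nearest to miR-2392 were the p53 target miR-34a-5p, at 28.99 RPM in QKI5 cells against 4.34 RPM in GFP cells (gap 0.02), and miR-935, at 21.8 and 3.53 RPM (gap 0.14). The other 8 members each had nearest miRNAs within 0.02. These were miR-484 and miR-92a-1-5p for miR-337-3p, miR-224-3p and miR-590-5p for miR-337-5p, miR-340-5p and let-7i-5p for miR-370-3p, and miR-9-5p and miR-92a-3p for miR-370-5p. They were miR-576-5p and miR-3144-3p for miR-493-3p, miR-376a-5p and miR-642b-3p for miR-493-5p, miR-376a-2-5p and miR-451a for miR-665, and miR-500a-5p and miR-32-5p for miR-770-5p. Of these 18 neighbours 2 (11.1%), miR-376a-5p and miR-376a-2-5p, belong to the 14q32 lists.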

How the data were processed

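The authors deposited 1 value per library and mature miRNA. The file's name calls them RPKM, but the deposited values are RPM: in each column 100.0% of the values above 0 were whole multiples of 1 step, within 0.1 of a read, so whole reads were recovered. Small RNA was isolated with a miRNA kit and sequenced on an Ion Proton, per the labels' protocols. Bowtie 0.12.3 and hg19 are named in the submitters' processing notes. Not given in the sources used here are the miRNA annotation, mismatches, multiple mapping and strand. Each group has 1 library, so no p-value is given.

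Log2 ratios are on log2(RPM + 0.153), 0.153 RPM being 1 read of the shallower library, and understate differences of scarce miRNAs. Ratios quoted without log2 are plain ratios of RPM with exact conditional binomial (Clopper-Pearson) 95% intervals, levels have exact Poisson intervals, shares Wilson intervals and ratios of ratios Woolf intervals. A miRNA was called at a log2 ratio of at least 1 in size among those with at least 20 reads over both libraries. Members, lists and rules were chosen with earlier results of these data known. All members are named. Other miRNAs were named for a shared seed, for the nearest log2 ratio among the 400 most abundant (the 2 nearest per member), or as the most abundant, highest and lowest of each comparison list. Markers of cell types were named as a check of the label, and the miRNAs named for runs of G were chosen after their values were seen. Steps were tested on simulated data. Software was scipy 1.17.1, pandas 2.3.3, numpy 2.4.6 and matplotlib 3.10.9 under Python 3.11.15.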

Additional observations from a re-analysis of the deposited data

How the results depend on the processing

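Relative to the scaling as deposited, the median log2 ratio of the 669 miRNAs moved by 0.15 when each column was scaled to its miRNA sum (the listed sum), by -0.29 under quantile normalization, -0.10 without the 10 most abundant in the scaling and -0.18 under a trimmed mean, and the higher share of all 2-fold calls was 68.2% as deposited, 77.2%, 42.5%, 62.0% and 56.5% under these in turn. The members' median of 0.40 became 0.55 when scaled to the listed sum, 0.29 without the 10 most abundant, 0.22 under the trimmed mean and 0.47 with GFP reads thinned in 1 draw. It stayed at 0.40 with the larger pseudocounts, and was 0.39 without miR-2392, a setting chosen after seeing the data, as was the binomial test. Dropping the read minimum could not change the members' median, since every member passed that minimum. The ratio of the summed level was 1.53 when scaled to the listed sum, 1.30 under quantile normalization, 1.27 without the 10 most abundant, 1.21 under the trimmed mean and 1.26 without miR-337-5p. Of the 2 members called higher, 1 (miR-2392) was left under quantile normalization, the trimmed mean, GC removal and a 3-fold threshold, and 0 members were lower by 2-fold or more in any setting. miR-493-5p changed sign to -0.11, -0.053 and -0.13 under quantile normalization, without the 10 most abundant and under the trimmed mean, miR-770-5p to -0.036 under quantile normalization and miR-370-5p to 0.043 with thinned reads. The median of the RTL1 antisense miRNAs was -0.016 when scaled to the listed sum and -0.15 with thinned reads. That list had 2 calls higher when scaled to the listed sum and 2 lower under quantile normalization, and the cluster of miR-379 to miR-656 had 17 lower under quantile normalization and 17 under the trimmed mean, against 10. The cause of these changes was not tested. Arm shares kept within their intervals with thinned reads. No paired analysis was possible because each group has 1 library, and for the same reason no library could be left out. Depth limits miR-370 and miR-770-5p, which rest on 33 to 282 reads a library.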

Other observations

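Runs of G in the mature sequence moved with the log2 ratio across all miRNAs with at least 20 reads and a RefSeq sequence. At least 2-fold higher with QKI5 were 19 of 166 miRNAs (11.4%) with no run longer than 1 G, 49 of 264 (18.6%) with a longest run of 2, 29 of 116 with 3 and 17 of 36 (47.2%) with 4, the class of miR-370-3p. In the class of miR-2392, with a run of 5 or more, 2 of 8 were, miR-2392 itself and miR-1275, at 103 RPM in QKI5 cells against 38.2 RPM in GFP cells. The other 14q32 miRNAs of that class were miR-1185-1-3p, with 257 RPM in QKI5 cells against 356 RPM in GFP cells, and miR-1185-2-3p, with 92.8 RPM in QKI5 cells against 96.9 RPM in GFP cells. The median GC content of these classes, from the shortest run to the longest, was 40.9%, 47.4%, 54.5%, 61.8% and 54.4%, and run length and GC content were not separated here.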
